A study of Mus musculus with 4 samples.

Results

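Integrins are the cell surface receptors of the extracellular matrix, each a pair of 1 alpha and 1 beta subunit. Laminins, trimers of alpha, beta and gamma chains, and the nidogens that link them to collagen IV form the basement membrane that those receptors bind. This family was followed in C2C12 cells, a mouse myoblast line that fuses into myotubes when serum is lowered, after 6 days of differentiation with or without GDF8 (myostatin, the TGF-beta family ligand that restrains muscle growth). Its members were taken by gene name from the array files: every probe named for an integrin alpha or beta subunit, a laminin alpha, beta or gamma chain, Nid1 or Nid2. That gave 88 probes of 42 genes, out of 27597 genes with a probe, and 37 of the 42 could be measured. They comprised 15 integrin alpha genes (13 measured), 9 integrin beta genes (8 measured), 11 laminin chains (9 measured) and both nidogens. The names also caught 5 genes that are not integrins but carry an integrin-binding name: Itgb1bp1, Itgb1bp2, Nmrk2 (named Itgb1bp3 in the files), Itgb3bp and Eif6 (named Itgb4bp). The name pattern left out Itgae, Itgax and Itgbl1.

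Cells of both groups were grown in 10% fetal bovine serum and differentiated in horse serum, given as 2% in the growth protocol and as 10% in the source names. The treated cells received 20 nM recombinant mouse GDF8 every 24 h for the 6 days, and the controls received nothing. Each of 4 two-colour arrays compared 1 GDF8-treated with 1 untreated sample, with GDF8 in Cy3 (green) on replicates 1 and 4 and in Cy5 (red) on replicates 2 and 3. The labels call these biological replicates but do not say that the cultures were kept apart, so p-values measure only the spread between these samples. Values are log2 ratios of GDF8 over untreated, where a value below 0 means less signal with GDF8, and ± is the standard error of the limma fit (n = 4 arrays). Adjusted p is limma's with Benjamini-Hochberg adjustment over 17446 genes or other transcripts, each represented by its brightest probe, at a threshold of 0.05.

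Skeletal muscle is known for a particular pair within this family. The laminin chain Lama2 dominates the basement membrane of the mature fibre, and integrin alpha 7 (Itga7), joined to integrin beta 1 (Itgb1), is the receptor that binds it. Proliferating myoblasts and other mesenchymal cells use alpha 5 and alpha v for fibronectin and vitronectin, alpha 6 for laminin, and the laminin chains Lama4 and Lama5.

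The upstream sequences of Itga9, Itgb6, Nmrk2 and Lama2 are shown so that E-boxes can be seen in place. E-boxes are the letters bound by myogenic factors such as MyoD and myogenin. Of the 42 genes, 27 had an entry in the RefSeq promoter table (build GRCm38.p6), with 30 starts in all. Each line gives the 250 bases before a start, 5′ to 3′ on the gene's strand, with the E-box CANNTG in capitals (it reads the same on both strands).
Itga9, chr9:118711442-118711691, plus strand: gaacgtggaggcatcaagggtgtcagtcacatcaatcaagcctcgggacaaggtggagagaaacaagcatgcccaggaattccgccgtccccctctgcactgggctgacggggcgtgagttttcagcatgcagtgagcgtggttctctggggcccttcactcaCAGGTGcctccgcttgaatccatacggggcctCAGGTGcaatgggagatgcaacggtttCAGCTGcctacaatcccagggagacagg
Itgb6, chr2:60722604-60722853, minus strand: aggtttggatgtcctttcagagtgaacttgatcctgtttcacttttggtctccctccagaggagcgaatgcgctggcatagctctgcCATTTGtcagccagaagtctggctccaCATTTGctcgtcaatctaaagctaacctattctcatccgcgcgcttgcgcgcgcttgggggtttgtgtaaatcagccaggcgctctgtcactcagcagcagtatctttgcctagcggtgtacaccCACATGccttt
Itgb6, chr2:60673694-60673943, minus strand: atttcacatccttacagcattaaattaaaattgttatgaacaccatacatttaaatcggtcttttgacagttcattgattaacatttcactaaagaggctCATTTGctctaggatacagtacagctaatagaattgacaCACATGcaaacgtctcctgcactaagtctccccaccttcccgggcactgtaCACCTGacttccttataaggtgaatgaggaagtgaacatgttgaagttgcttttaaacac
Nmrk2, chr10:81202038-81202287, minus strand: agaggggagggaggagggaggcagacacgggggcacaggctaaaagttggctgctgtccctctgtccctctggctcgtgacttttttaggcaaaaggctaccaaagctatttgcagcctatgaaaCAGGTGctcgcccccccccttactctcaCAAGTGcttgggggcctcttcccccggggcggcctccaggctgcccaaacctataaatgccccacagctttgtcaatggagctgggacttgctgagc
Lama2, chr10:27616943-27617192, minus strand: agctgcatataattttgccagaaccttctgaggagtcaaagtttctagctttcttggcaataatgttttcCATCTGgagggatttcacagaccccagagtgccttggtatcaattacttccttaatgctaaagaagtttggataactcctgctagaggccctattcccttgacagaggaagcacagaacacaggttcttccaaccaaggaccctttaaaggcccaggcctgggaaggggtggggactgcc
Itga9 carried 3 E-boxes in this window, 1 of them the CAGCTG form. Each of the 2 Itgb6 starts carried 3, Nmrk2 carried 2 and Lama2 carried 1, none of them CAGCTG. Among other measured members discussed below, Itgav, Itgb1, Nid1, Itga10 and Itgb3bp carried 0. Itga5, Lamb2, Itga11, Itgb7 and each Itga3 start carried 1, as did Itga1, Itga4 and Itgb1bp1, whose 1 was CAGCTG. Lama5, Lamb1, Itga8, Itgb8 and Itga2b carried 2, in Itga2b 1 of them CAGCTG. Itgb5 carried 3, 1 of them CAGCTG, as Itga9 did. A Lamb3 start carried the same, and another Lamb3 start carried 1. None of these genes passed at its brightest probe in the fit described above. Itga7, Itgb1bp2 and Lama4 were among the genes without an entry. E-boxes are common: 80.0% of the 30 member promoters and 66.2% of all 32851 windows of this length held CANNTG, and 26.7% and 13% held CAGCTG, which is 1 form of CANNTG. The Smad motif GTCTAGAC, searched on both strands, was in 0 of the 30 and in 0.167% of all windows. The shorter Smad-binding letters GTCT on either strand, part of the longer motif, was in 93.3% and 82.9%. These are matches of letters, and no binding was measured.

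In GDF8-treated cells 4 of the 37 measured genes were lower, the integrin subunits Itgb6 and Itga9 and, of the genes caught by an integrin-binding name, Nmrk2 and Itgb1bp2. The other 33 did not pass. Among all 17446 features, 2.22% passed lower and 0.808% passed higher (3.03% in either direction), against 4 of 37 (10.8%) and 0 of 37 here. Without the 5 genes that are not integrins, 2 of 32 (6.25%) passed lower. The median ratio of the 37 genes was -0.02, beside 0.006 over all features. Of the 21 measured integrin subunits, 2 passed lower; of the 9 laminin chains and the 2 nidogens, 0 passed in limma's fit. Before adjustment, 11 of the 37 had a p under 0.05, beside 12.4% of all features.

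**Figure D1:**
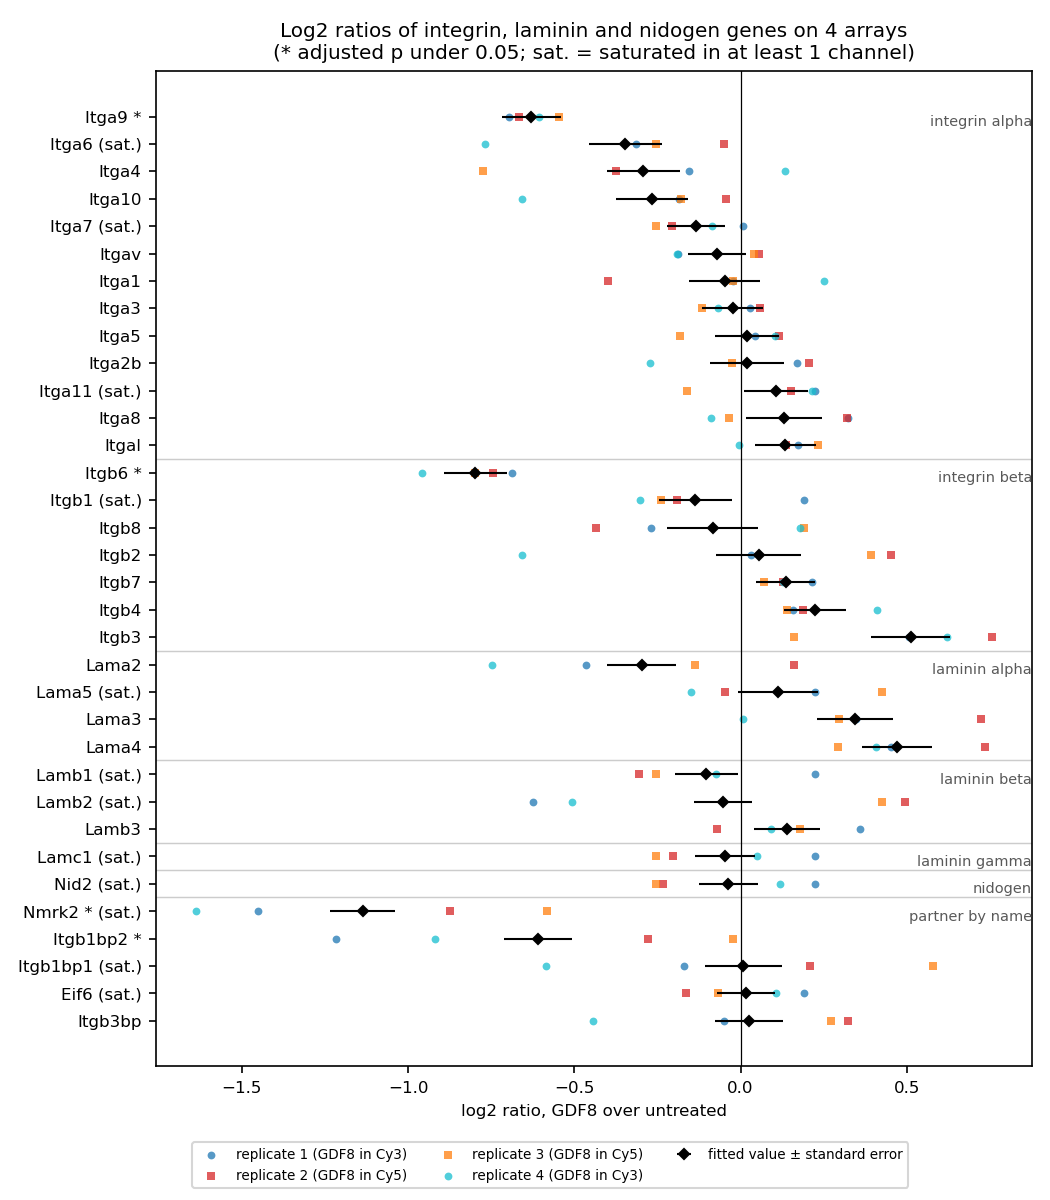
Log2 ratios of GDF8 over untreated (x axis) for 34 of the 37 measured genes, grouped by subunit type; coloured points are the 4 arrays and black diamonds the fitted value ± standard error. Itgb6, Itga9 and Nmrk2 lie below 0 on all 4 arrays with the fitted values -0.80, -0.63 and -1.14, Lama4 (0.47) and Itgb3 (0.51) lie above 0 without passing, and 2 genes saturated in a whole group (Itgb5 and Nid1) are not drawn.

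Itgb6, which pairs with alpha v in an epithelial receptor that releases TGF-beta from its latent form, fell 1.74-fold. Its ratios were -0.69, -0.74, -0.80 and -0.96 on replicates 1 to 4, and the fit gave -0.80 ± 0.09 (adjusted p = 0.014). The level of its probe, in log2 units of signal, was 13.82 ± 0.28 (SD, n = 4) in untreated and 13.02 ± 0.36 in GDF8 cells, and it was saturated in no channel. All 4 arrays were low, in both dye orientations. Another probe of the gene gave -0.76, -0.60, -0.74 and -0.64 (fitted -0.68, adjusted p = 0.016 with each probe tested alone). The dimmest of its probes gave 0.11, -0.37, -0.10 and 0.06 and did not follow the others.

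Itga9 encodes the alpha subunit that binds tenascin-C and osteopontin. It fell 1.55-fold, with -0.70, -0.67, -0.55 and -0.61 on replicates 1 to 4 and a fitted -0.63 ± 0.09 (adjusted p = 0.018). The 4 arrays spanned the narrowest range of the called genes. It is a dim probe, at 8.72 ± 0.29 (SD, n = 4) log2 units in untreated and 8.09 ± 0.27 in GDF8 cells, though well above background in all 8 channels.

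Nmrk2, a nicotinamide riboside kinase of skeletal muscle, fell 2.20-fold. The ratios were -1.45 and -1.64 with GDF8 in Cy3 (replicates 1 and 4) and -0.87 and -0.58 with GDF8 in Cy5 (replicates 2 and 3). The fit gave -1.14 ± 0.10 (adjusted p = 0.0085). Its probe was saturated in 2 of the 4 untreated channels, whose level is capped there, so the fold may be understated. No other probe of the gene was measured. Itgb1bp2 encodes melusin, a muscle protein that binds the tail of integrin beta 1. It fell 1.53-fold, with -1.22 and -0.92 on replicates 1 and 4 and -0.28 and -0.02 on replicates 2 and 3. The fit gave -0.61 ± 0.10 (adjusted p = 0.032). All 4 values were below 0, but replicate 3 was close to it, and without the dye term in the fit the call was lost (adjusted p = 0.28).

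The other genes with an integrin-binding name, Itgb1bp1, Itgb3bp and Eif6, gave fitted ratios of 0.008, 0.03 and 0.02 and did not pass.

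Fewer members passed with any 1 array left out. Each of these fits kept the dye term, so its 3 arrays left 1 residual degree of freedom. A lost call therefore does not tell whether 1 array drove it. The ratios of these fits ran from -0.86 to -0.73 for Itgb6 and from -0.66 to -0.599 for Itga9. They ran from -1.21 to -1.06 for Nmrk2 and from -0.68 to -0.53 for Itgb1bp2. Without replicate 1, Itgb6 and Nmrk2 passed; without replicate 3, Nmrk2 alone did; without replicate 2 or replicate 4, limma called 0 of the 37 members and 0 of the 17446 features, with 9 and 8 members and 1524 and 1792 features at an unadjusted p under 0.05. With the processed signals and with the authors' deposited log2 table, neither of which adds the offset of 50 used here, the dim Itga9 probe gave larger falls, -1.002 and -0.98.

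**Figure D2:**
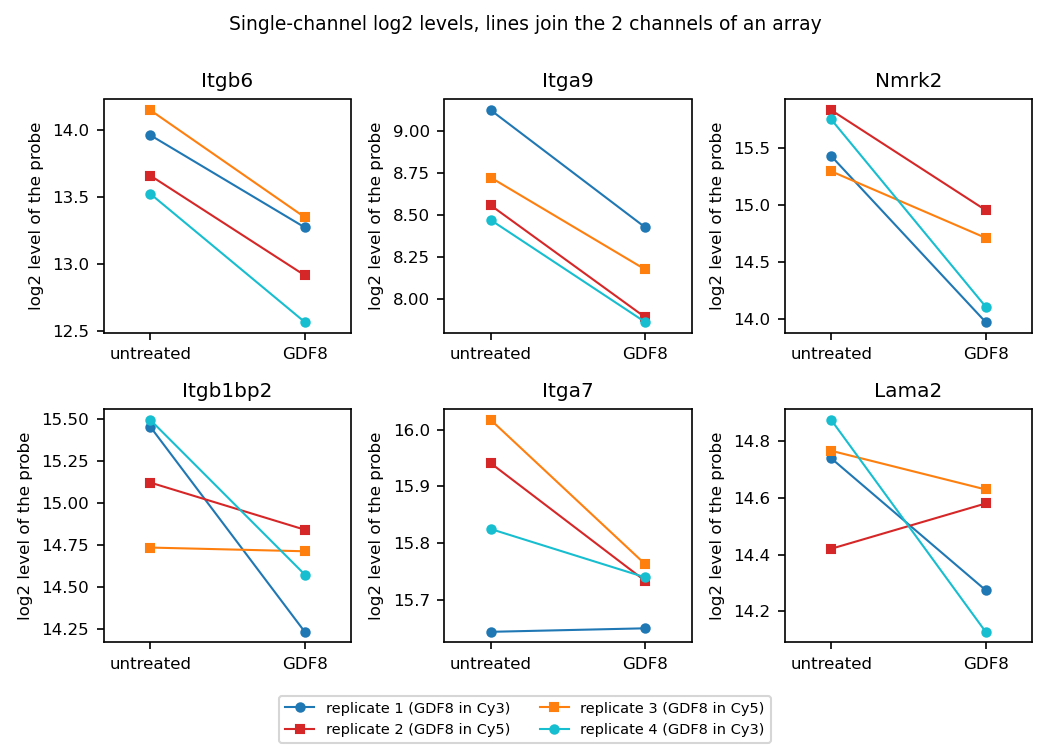
Log2 probe level (y axis) in the untreated and the GDF8 channel of each array, with a line joining the channels of 1 array, for the 4 called genes and for Itga7 and Lama2; each panel has its own y axis. Itgb6, Itga9, Nmrk2 and Itgb1bp2 are lower with GDF8 on each of the 4 arrays, whereas replicate 2 of Lama2 (0.16) and replicate 1 of Itga7 (0.01) are not.

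The muscle forms themselves did not pass. Itga7 gave 0.01, -0.21, -0.25 and -0.09 on replicates 1 to 4, and the fit gave -0.14 ± 0.09 (adjusted p = 0.71; 95% confidence interval -0.34 to 0.07). Of its 8 channels 5 were saturated, and its other measured probe (-0.12) was saturated in 4, so that a change above the scanner's ceiling could not be seen. Lama2 was saturated in no channel. It gave -0.47, 0.16, -0.14 and -0.75, a fitted -0.30 ± 0.10 (adjusted p = 0.28; interval -0.54 to -0.05), and another probe gave -0.04, -0.27, -0.31 and -0.65 (fitted -0.32). Replicate 2 was the exception among the 4 at the brighter probe, but not at the dimmer one. That brighter probe was spotted 10 times on each array, and the spots of 1 array had an SD of 0.04 to 0.15, below the SD of 0.39 between arrays. The brighter probe was lower with GDF8 in Cy3 (-0.47 and -0.75) than with GDF8 in Cy5 (0.16 and -0.14).

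Itgb1, the beta chain of the laminin, fibronectin and collagen receptors, gave different answers by probe. Its brightest probe, saturated in 6 of 8 channels, gave 0.19, -0.19, -0.24 and -0.30 (fitted -0.14 ± 0.11, adjusted p = 0.82). The next probe, never saturated, gave 0.06, -0.15, -0.16 and -0.22 (fitted -0.12). The third and dimmest gave -0.96, -0.81, -0.52 and -1.29, and with each probe tested alone it fell by 0.90 ± 0.11 (adjusted p = 0.012), deeper than the others on every array. The files do not say which transcript form each probe reads, and whether the dim probe follows a splice form was not tested. With all probes tested alone, 1.90% of 26579 probes passed lower and 0.715% higher, and of the 65 member probes measured 6 passed lower and 0 higher.

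**Figure D3:**
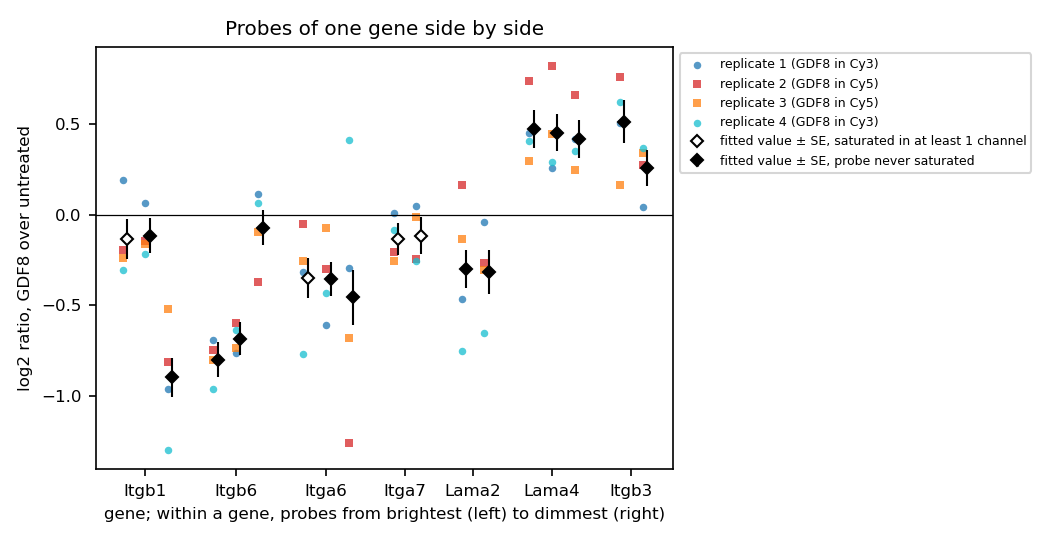
Log2 ratios (y axis) of each measured probe of 7 genes, ordered within a gene from brightest to dimmest; coloured points are arrays, and diamonds are fitted values ± standard error, open where the probe was saturated in at least 1 channel. The dimmest Itgb1 probe (-0.90) stands apart from the gene's other probes (-0.14 and -0.12), as does the dimmest Itgb6 probe (-0.07), while the 3 Lama4 probes give 0.47, 0.45 and 0.42.

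Of the other alpha subunits, Itga6, Itga5 and Itgav did not pass. Itga6, the laminin-binding alpha subunit of myoblasts, gave -0.31, -0.05, -0.26 and -0.77 (fitted -0.35 ± 0.11, adjusted p = 0.23), with 5 channels saturated. Its unsaturated probes gave -0.35 and -0.46. Itga5, the fibronectin receptor, gave 0.04, 0.12, -0.18 and 0.10 (fitted 0.02 ± 0.10), and Itgav, which binds vitronectin and other RGD ligands, gave -0.19, 0.06, 0.04 and -0.19 (fitted -0.07 ± 0.09). Values of Itga5 and Itgav lay on both sides of 0, and both probes were never saturated. The intervals were -0.21 to 0.25 for Itga5 and -0.28 to 0.14 for Itgav.

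Itgb3, the partner of alpha v in the vitronectin receptor, was the highest of the subunits at 0.51, 0.76, 0.16 and 0.62 (fitted 0.51 ± 0.12, adjusted p = 0.097). Another probe gave 0.04, 0.27, 0.34 and 0.36 (fitted 0.25). All 8 of these values were above 0, and neither probe passed. The other integrin alpha genes measured (Itga1, Itga10, Itga11, Itga2b, Itga3, Itga4, Itga8 and Itgal) had fitted ratios from -0.29 to 0.13 and none passed. Itgb2, Itgb4, Itgb7 and Itgb8 lay between -0.08 and 0.22 at their brightest probes without passing. A dimmer Itgb8 probe, never saturated, gave -0.31, -0.07, -0.06 and -0.79. Its fitted value was -0.31 (adjusted p = 0.30 in limma's fit with each probe tested alone). Itgb5, the widely made partner of alpha v, was saturated in all 8 channels, so no ratio is given.

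Among laminin alpha chains, Lama4, found in vessel and mesenchymal basement membranes, was highest at 0.45, 0.73, 0.29 and 0.41 (fitted 0.47 ± 0.11, adjusted p = 0.084). Its other probes gave 0.45 and 0.42, and every array was above 0 at each of the 3 probes. Lama3, a chain of epithelial laminins, gave a fitted 0.34. Lama5 gave 0.22, -0.05, 0.43 and -0.15 (fitted 0.11 ± 0.12) with 5 channels saturated. Lama1, the embryonic chain, was not tested in the main fit. Its probe that lay well above background had no value on replicate 1, where its spot was flagged as an outlier. On replicates 2 to 4 that probe gave 0.57, 0.32 and 0.39, and a fit of those 3 arrays, chosen after seeing the data, gave 0.42 ± 0.12 (adjusted p = 0.22). Another Lama1 probe gave 0.36, 0.58, 0.27 and 0.61 on replicates 1 to 4. It was well above background in only 3 GDF8 and 0 untreated channels.

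The beta and gamma chains shared by most laminins, and the nidogens, were among the brightest probes. Lamb1 gave 0.22, -0.30, -0.25 and -0.07 (fitted -0.10 ± 0.10), Lamc1 0.22, -0.20, -0.26 and 0.05 (fitted -0.05 ± 0.09) and Nid2 0.22, -0.23, -0.26 and 0.12 (fitted -0.04 ± 0.09). Each was saturated in 6 of 8 channels. Nid1 was saturated in all 4 untreated channels, so it has no ratio. A spot saturated in both channels returned nearly the same ratio whatever its gene: 0.22, -0.31, -0.26 and 0.81 on replicates 1 to 4. This held for 8, 2, 8 and 1 member genes on those arrays, and their values there measure the ceiling and not the RNA. Lamb2, the beta chain of synaptic and muscle laminin, had 1 saturated channel. It gave -0.62 and -0.51 with GDF8 in Cy3 and 0.49 and 0.43 with GDF8 in Cy5 (fitted -0.05 ± 0.09), so its sign turned with the dye. Lamb3, of epithelial laminins, gave 0.14. Such a turn of sign with the dye was seen in 9 of 37 members (24.3%) and in 32.9% of all features, and, among genes whose probe was never saturated, in 2 of 23 (8.70%) and 20.9%.

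In all, 11 of the 37 members kept 1 sign on all 4 arrays, beside 15% of all features. The 5 higher were Itgb3, Itgb4, Itgb7, Lama3 and Lama4 (6.71% of all features were higher on every array). The 6 lower were Itga6, Itga9, Itga10, Itgb6, Itgb1bp2 and Nmrk2 (8.26%). Itgb4, Itgb7, Lama3 and Itga10 are named here after their values were seen. Taking for each gene the brightest probe that was never saturated left 27 members measured, of which Itga9, Itgb6 and Itgb1bp2 passed lower and 0 passed higher, when 2.68% of 15102 features passed lower and 1.02% higher. The members' median was then 0.004, beside 0.01 over all features.

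The muscle forms were set against other members by the difference of their ratios on each array, with an exact two-sided sign-change permutation test. With 4 arrays the smallest p this test can give is 0.13, so no pair could pass, and p-values were adjusted over the 4 pairs compared. Lama2 was below Lama4 on all 4 arrays, by -0.92, -0.57, -0.43 and -1.16, a mean of -0.77 ± 0.33 (SD, n = 4; exact p = 0.13, adjusted 0.25). Neither probe was saturated. Lama2 minus Lama5 was -0.69, 0.21, -0.56 and -0.60 (mean -0.41 ± 0.42, exact p = 0.25, adjusted 0.333). Itga7 minus Itga5 was -0.04, -0.32, -0.07 and -0.19 (mean -0.15 ± 0.13, exact p = 0.13, adjusted 0.25). Itga7 minus Itga6 was 0.32, -0.16, 0.0004 and 0.68 (mean 0.21 ± 0.37, exact p = 0.375, adjusted 0.375). The mean difference was larger than its SD for Lama2 minus Lama4 and for Itga7 minus Itga5, but this test could not tell whether either pair differed. These are differences between ratios of GDF8 over untreated, not between levels. The pairs with Lama5, Itga7 and Itga6 rest on saturated probes. On replicate 3 Itga7 and Itga6 were both saturated in both channels, which fixes their difference near 0, so no difference between these receptors can be read from that array.

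The proteins around these receptors were followed in 3 lists written with earlier results of these data known. For comparison with the counts of each list, 2.22% of all features passed lower and 0.808% higher, with a median of 0.006. Of 24 measured cytoplasmic proteins linked to integrins, 1 passed lower and 0 higher, with a median of -0.02. It was Nrap, an actin-binding protein of muscle attachment sites, at -1.21, -0.20, -0.36 and -1.01 (fitted -0.70 ± 0.09, 1.62-fold, adjusted p = 0.017). The parvins Parvb and Parva (0.17 and 0.16) and talin 2 (Tln2, 0.14), next by p, did not pass. Parva turned sign with the dye, at -0.67 and -0.35 with GDF8 in Cy3 and 0.92 and 0.74 with GDF8 in Cy5.

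Of 16 measured basement membrane genes and laminin partners, 1 passed lower and 0 higher, with a median of -0.05. Bcam, a laminin receptor outside the integrin family that binds Lama5, gave -0.74, -1.06, -0.72 and -1.08 (fitted -0.90 ± 0.11, 1.86-fold, adjusted p = 0.015), and every array was low. The collagen genes Col18a1 (0.38), Col4a5 (-0.44) and Col4a2 (0.33) did not pass. Of 14 measured integrin ligands, 1 passed in each direction, with a median of 0.09. Npnt, nephronectin, a ligand of alpha 8 beta 1, gave -0.97, -0.96, -0.62 and -0.92 (fitted -0.87 ± 0.10, 1.83-fold, adjusted p = 0.013). Tnc, tenascin-C, a ligand of alpha 9, gave 0.47, 0.56, 0.37 and 0.68 and rose by 0.52 ± 0.09 (1.43-fold, adjusted p = 0.041). Its call was lost with the processed signals (adjusted p = 0.10), median centring (0.16), no dye term (0.081), no pairing by array (0.92), the authors' deposited table (0.14) and without any 1 of the 4 arrays (0.081 to 0.32), with ratios from 0.47 to 0.57. Icam1 (0.20) and Thbs2 (0.14) did not pass, and Col1a1 was saturated in all 4 GDF8 channels. In the main fit the receptor subunit Itga9 was thus lower and its ligand Tnc higher. Osteopontin (Spp1), the other ligand of Itga9 named above, was saturated in all 4 untreated channels, so it has no ratio. Itga8, the receptor subunit for Npnt, gave 0.13 without passing.

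Leaving out replicate 2 or replicate 4 also ended the calls of Nrap, Bcam and Npnt (adjusted p from 0.075 to 0.12). Nrap was lost without replicate 1 (0.060), replicate 3 (0.096) or the dye term (0.13). The fits of 3 arrays had the limit given above. Their ratios ran from -0.75 to -0.65 for Nrap, -0.98 to -0.81 for Bcam and -0.95 to -0.78 for Npnt.

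**Figure D4:**
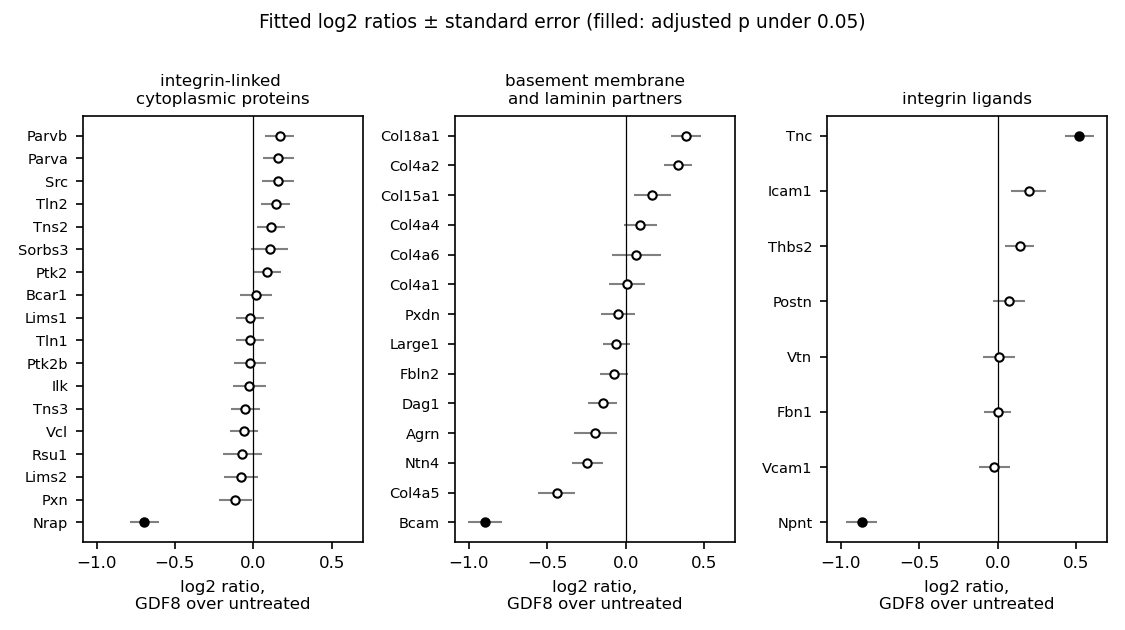
Fitted log2 ratios ± standard error (x axis) of partner genes in 3 lists, with filled points for adjusted p under 0.05. Nrap (-0.70), Bcam (-0.90) and Npnt (-0.87) lie to the left and Tnc (0.52) to the right; 6, 2 and 6 genes of the lists that were saturated in a whole group are not drawn.

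Other cell types were checked with markers. All 10 skeletal muscle markers were well above background in all 8 channels and 6 were saturated in at least 1. The summed signal of the 10 ranged from 180047 to 483739 in untreated and from 192150 to 397196 in GDF8 channels. Actn2 (-1.38 ± 0.16, adjusted p = 0.013) and Mef2c (-0.96 ± 0.11, adjusted p = 0.014) passed lower in limma's fit, and Ckm (-0.92, adjusted p = 0.052) did not pass. Myf5 (0.03, never saturated) and Myod1 (-0.01, saturated in 5 of 8 channels) did not pass either. Myog, Des, Acta1, Tnnt3 and Myh3 were saturated in all 4 untreated channels, so they have no ratio. In such bulk RNA, fewer cells of a type and less RNA per cell cannot be told apart, so whether Nmrk2, Itgb1bp2 and Nrap fell with the number of muscle cells was not tested. Itgb6 is typical of epithelium. Of the 6 epithelial markers Cldn4 was above background in no channel and Epcam in 1, while Krt14 passed higher (0.72 ± 0.12, adjusted p = 0.030). Cdh1, E-cadherin, gave -0.22, -0.36, -0.13 and -0.46 and did not pass (fitted -0.29 ± 0.10, adjusted p = 0.26). Krt5 (0.01) and Krt8 (0.10) did not pass. The sum of the 6 ranged from 2940 to 4816 in untreated and from 4269 to 7195 in GDF8 channels. That sum mostly follows Krt14, whose untreated log2 level was 12.54, beside 8.58 for Krt5 and 8.20 for Krt8. The part of epithelial cells in the fall of Itgb6 was not tested. The defining endothelial markers Pecam1 and Tie1 and the blood markers Ptprc and Adgre1 were above background in no channel. Among the members, Itgb2l was above background in no channel, and Itgam, Itga2 and Lamc3 were so in some channels but not in all 4 of either group, so none of them was tested.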

How the data were processed

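Samples were 4 arrays, each with 1 GDF8 and 1 untreated RNA. Per the file headers, the deposited scanner files, which Agilent Feature Extraction (version 9.1.1.1) produced for design 014868, give spot intensity for each channel, a log10 ratio of red over green, and other columns, which flag saturated spots, outliers and spots well above background. The authors' deposited table holds log2 ratios. It equalled the processed red over green signals, turned to GDF8 over untreated, within 0.001 for 100% of 40929 probes with 1 spot, and its columns were not centred (medians 0.14, -0.09, -0.11 and 0.09). Per the series' design text, the authors used GeneSpring GX 12, flag filters and an unpaired t-test (p below 0.05) with 1.6 as the fold limit.

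Mean signals were corrected by normexp (offset 50) and normalised within arrays by loess in limma 3.58.1 (R 4.3.3). Outlier spots were dropped, spots of a probe averaged and control spots left out. Probes were kept where they lay well above background on all 4 GDF8 or all 4 untreated channels and had a value on all 4 arrays, as 26579 of 41174 probes did, and 646 lacked an array. The brightest probe stood for a gene. Saturated spots were kept; 9.20% to 12.1% of spots were saturated in red and 0.745% to 5.49% in green, and the number of arrays limits precision. Log ratios correlated by 0.47 between arrays of 1 dye orientation (1 with 4, and 2 with 3) and by -0.21 to 0.14 between orientations, so the fit held a GDF8 term and a dye term. All arrays lay on 1 slide. The values of 1 measured member are not reported here, though counts and medians include it. The fit was tested on simulated ratios.

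Names came from a RefSeq list for GRCm38.p6, by accession (24375 probes), current symbol (6301) or synonym (2426), and 8072 kept the files' name. The members, lists and tests were chosen with earlier results of these data known. Named with all values were Itga7, Lama2, 11 members fixed by role, those past the threshold and the 6 with the smallest p, and in each partner list the genes past the threshold and up to 3 others. Alternatives covered background, offset, normalisation, filter, dye term, pairing, probe choice, the authors' table, the methods' t-test and each array left out.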

Additional observations from a re-analysis of the deposited data

Results flagged for a closer look

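Of 21 sets of 4 array values searched for 1 array far from the rest, 1 had such an array, and chance gives about 1 in 20. It was Lama2 minus Lama5 on replicate 2, at 0.21, against -0.69, -0.56 and -0.60 on replicates 1, 3 and 4. Lama5 was saturated in 5 of 8 channels, and the brighter Lama2 probe was also at its highest on that array (0.16).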

How the results depend on the processing

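The main fit called 528 features, 4 members and 4 partners. Without the dye term it was 332 features and 2 partners, and without pairing by array (no replicate block, single-channel values) 324 features and 1 member, Nmrk2, with Itgb1bp2 at adjusted p = 0.057, Itgb6 at 0.15 and Itga9 at 0.21. The methods' t-test at its own limits (p below 0.05, 1.6-fold) gave 347 features and 2 members. After Benjamini-Hochberg it gave 115 features, 1 partner and 0 members (6 members at an unadjusted p under 0.05). A fold over 1.6 beside the adjusted threshold left 2 members. With single arrays left out, limma called 0 to 258 features, 0 to 2 members and 0 to 2 partners. These fits had 1 residual degree of freedom. Adjusted p ran from 0.068 to 0.26 for the 4 called members without replicate 2 or 4. Itgb1bp2 also missed the threshold with the processed signals (0.059), the authors' table (0.071) and no dye term (0.28). With single arrays left out, Itga5 ran from -0.055 without replicate 2 to 0.094 without replicate 3, and Lama5 from -0.0059 without replicate 3 to 0.23 without replicate 2, so both changed sign. The 4 differences between members kept their sign wherever computed, and Lama2 minus Lama4 ran from -0.90 to -0.64. With probes never saturated only that pair could be computed. Aquantile leaves ratios as they were. Beside those 3 members, pairing changed the call of 1 partner, Tnc, and of no other gene named. Replicate numbers are the arrays themselves, so the main fit already pairs the samples. Saturation in 5 or more of 8 channels limits Itga6, Itga7, Itga11, Itgb5, Lama5, Lamb1, Lamc1, the nidogens and the brightest Itgb1 probe. The causes were not tested.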

Other observations

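The list of integrin ligands was written with earlier results of these data known. With each gene taken at its brightest probe that was never saturated, 11 of the 14 ligands could be measured. Of these, 9 had ratios above 0, beside 8178 of all 15102 features. The median of the ligands was 0.31, beside 0.01 over all features. By array the ligands' medians were 0.04, 0.40, 0.25 and 0.37, and 1 passed higher (Tnc) and 1 lower (Npnt). The median with the brightest probes was 0.09, with 9 of those 14 probes saturated in at least 1 channel. Lmod1, one of the smooth muscle markers, passed lower (-0.48 ± 0.09, adjusted p = 0.040 in limma's fit), while Cnn1 gave 0.55 without passing (adjusted p = 0.079).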
